A study of Rattus norvegicus with 6 samples.

Results

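Ptx3 and the IL-6 cytokine family were examined in RNA-seq data of rat cardiomyocytes. The set held 10 genes, which were Ptx3, the ligands Il6, Lif and Il11, the receptor chains Il6st, Lifr and Osmr, the signalling genes Stat3 and Socs3, and Il1rl1, the receptor gene for IL-33. Members were found by their gene symbol, and transcripts that the authors had added to the annotation were taken with them where they overlapped a member on its strand. This gave 15 rows, 10 of annotated genes and 5 of unannotated transcripts, of 43035 rows in the count table, 32883 of them annotated and 10152 not. The genes were chosen by their differences in counts between these same libraries, which were already known, so their values are a description and carry no test.

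The cells were cardiomyocytes in primary culture from the hearts of Sprague-Dawley rats of postnatal day 1. This day is the one listed for the samples, and the methods of the study give a range that also includes the next day. One group received a scramble siRNA (si-NC) and the other an siRNA against DYRK1A (si-DYRK1A), a protein kinase, and RNA was collected 48 h later from 3 libraries per group, which the labels call biological replicates. An siRNA directs the cleavage of mRNA that is complementary to it. Cells of both groups were grown in medium with fetal bovine serum, and both were transfected. The cultures were plated from cells still in suspension after a step of differential attachment, which lowers the number of fibroblasts and other cells that attach early but need not remove them. The sources used here do not say whether each replicate came from a separate litter.

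The libraries held 10325074 to 11921772 counts in si-NC and 10703229 to 11723974 counts in si-DYRK1A. The targeted gene did not check the labels. For Dyrk1a itself, the row held 3, 0 and 1 counts in si-NC against 2, 1 and 0 in si-DYRK1A. The unannotated transcript that covers it, for which the authors list a protein kinase domain, held 777, 919 and 968 counts in si-NC and 971, 851 and 944 counts in si-DYRK1A, and was thus not lower. Directions below are therefore between libraries as they are labelled. Col1a1, a collagen gene of fibroblasts, and Actc1, the cardiac actin gene, had the highest counts in the table. In bulk samples such as these, fewer cells of a type and less RNA per cell cannot be told apart.

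The IL-6 family is a group of cytokines that share one signalling receptor chain, gp130, encoded by Il6st. IL-6 and IL-11 bind a private receptor and then gp130, LIF binds the LIF receptor (Lifr) together with gp130, and oncostatin M binds gp130 together with OSMR or LIFR. The receptors activate JAK kinases, which phosphorylate the transcription factor STAT3, and STAT3 induces Socs3, whose protein blocks the same receptors. In the heart the family is known for cardiomyocyte growth and survival after injury and for its part in inflammation and fibrosis. PTX3 is a long pentraxin, a secreted pattern recognition protein that is made in inflamed tissue by many cell types and takes part in the assembly of a hyaluronan matrix. Il1rl1 encodes ST2, which exists as a membrane receptor for IL-33 and as a soluble decoy made from the same gene.

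Promoter sequences were taken for the members from the RefSeq table of the GRCr8 assembly, each window running from 250 bases before to 50 bases after the start of the gene. Windows were found for 9 of 10 members, and Lif was without an entry. The upstream bases of 4 members are shown. Ptx3 and Il6 were the members with the largest positive differences. Il11 and Osmr, a ligand and a receptor chain, were the members whose windows matched the AP-1 pattern given below. Capitals mark motif matches, and each sequence reads 5′ to 3′ on the strand of its gene. Ptx3 is chr2:152797313-152797562 on the plus strand, Il6 is chr4:5894576-5894825 on the minus strand, Il11 is chr1:78098372-78098621 on the plus strand and Osmr is chr2:57688562-57688811 on the minus strand.
Ptx3: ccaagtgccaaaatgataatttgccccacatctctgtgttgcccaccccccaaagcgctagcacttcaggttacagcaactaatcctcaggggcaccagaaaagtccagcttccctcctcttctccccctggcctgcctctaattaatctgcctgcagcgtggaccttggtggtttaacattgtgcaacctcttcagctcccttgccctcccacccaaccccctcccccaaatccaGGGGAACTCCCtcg
Il6: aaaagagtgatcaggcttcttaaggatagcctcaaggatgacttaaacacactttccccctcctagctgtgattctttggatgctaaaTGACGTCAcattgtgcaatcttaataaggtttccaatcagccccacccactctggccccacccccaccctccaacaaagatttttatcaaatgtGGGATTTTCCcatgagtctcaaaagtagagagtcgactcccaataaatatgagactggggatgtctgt
Il11: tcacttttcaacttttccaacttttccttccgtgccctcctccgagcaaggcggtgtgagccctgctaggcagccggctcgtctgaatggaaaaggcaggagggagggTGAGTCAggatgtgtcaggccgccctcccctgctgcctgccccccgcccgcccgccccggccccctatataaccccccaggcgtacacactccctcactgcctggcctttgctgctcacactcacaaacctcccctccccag
Osmr: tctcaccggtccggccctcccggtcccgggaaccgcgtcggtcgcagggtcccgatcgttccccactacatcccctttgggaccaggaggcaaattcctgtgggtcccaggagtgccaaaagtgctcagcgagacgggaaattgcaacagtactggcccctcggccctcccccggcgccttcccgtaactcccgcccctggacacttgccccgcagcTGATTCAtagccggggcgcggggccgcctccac

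Motifs were searched on both strands, TTCNNNGAA for STAT proteins, TGANTCA for AP-1, TGACGTCA for the cyclic AMP response element and the NF-kB consensus by its name. The NF-kB motif was found in Ptx3, in overlapping matches on both strands from 14 to 4 bases before the start, in Il6 from 68 to 59 bases before the start, and in Socs3 from 161 to 152 bases before the start. That made 3 of 9 member windows, where 4.18% of 33469 windows in the table held it. The cyclic AMP response element stood in Il6 from 162 to 155 bases before the start, in 1 of 9 member windows and 1.83% of all windows. AP-1 matches lay in Il11 from 142 to 136 and in Osmr from 33 to 27 bases before the start. Any middle base was allowed, and it was G in Il11 and T in Osmr. This pattern stood in 2 of 9 member windows and 7.33% of all windows. None of the member windows held the STAT motif, which was found in 8.87% of all windows, and this says only that these letters were not in these windows. Each window lies at the listed start of its gene, and whether that start was used in these cells was not tested. For Il6st, Osmr and Socs3, the unannotated transcripts read below begin upstream of the gene row. Their windows may thus not lie at the start of the RNA that was counted. GRCr8 positions cannot be set against the Rnor_6.0 positions given below.

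In the count table, the members fell into those read by their own gene row and those whose counts sat in an unannotated transcript. Ptx3, Il6, Il11, Lifr and Il1rl1 were counted in their own rows. The rows of Lif, Osmr and Socs3 held 0 counts in every library, and that of Il6st held 0 to 6. Each of these 4 genes was overlapped on its strand by an unannotated transcript with 361 to 1494 counts per library. The protein domains that the authors list for these transcripts were those of the LIF and oncostatin M family over Lif, fibronectin type III, Ig-like and IL-6 receptor alpha binding domains over Il6st, a fibronectin type III domain over Osmr and an SH2 domain over Socs3. The transcript over Lif covered 36.2% of the listed span of the gene, and those over Il6st, Osmr and Socs3 covered all of it. Values of these 4 members are therefore those of the overlapping transcript, and how many of the reads lay within the gene itself is not known. No source used here says whether reads in bases shared by a gene and an overlapping transcript were counted, so a 0 in such a row does not show that the RNA was absent.

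For Stat3, the transcription factor of the pathway (chromosome 10, 88790408 to 88842233, minus strand), no level could be read. Its gene row held 1 count in the si-NC replicate 3 library and 0 in the other five libraries. The unannotated transcript with the same ends, for which SH2 and STAT domains are listed, held 0 in all 6. Stat3 was the 1 member that was not tested.

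Of 15513 features that passed the filter on low counts, the edgeR quasi-likelihood test called 2360 at an adjusted p below 0.05 (15.2% of those tested), with 1245 (8.03%) higher in si-DYRK1A and 1115 (7.19%) lower. Among the 9 members that passed the filter, 3 were called higher (Ptx3, Il6 and Il1rl1), 4 were called lower (Lif, Osmr, Lifr and Socs3) and 2 were not called (Il11 and Il6st). The same 7 called members were those whose groups did not overlap in normalized counts, which was so for 31.5% of all features tested, 16.2% higher and 15.3% lower. These differences chose the members, so nothing is read from the counts.

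Ptx3 (chromosome 2, 158097843 to 158103653, plus strand) was the member with the largest positive difference. It held 870, 925 and 985 counts in si-NC and 1625, 1656 and 1888 counts in si-DYRK1A. In CPM, the counts scaled to the size of the library with TMM factors, this was 83.4, 78.2 and 82.4 in si-NC and 143, 156 and 163 in si-DYRK1A. Every si-DYRK1A library was far above the highest si-NC library, and the spread within a group was small beside the gap. The log2 fold change was 0.92 (SE 0.0559, 95% interval 0.81 to 1.04), which is 1.89-fold. Fits that left out single libraries gave 0.88 to 0.97. Ptx3 lies within Veph1, a gene on the other strand, and no source used here says whether counting used strand. Veph1 held 5 to 15 counts per library.

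The 3 genes whose 6 centred log2 CPM values lay nearest to those of Ptx3 among 8094 annotated genes were Nap1l5, Esm1 and Aoc1. Nap1l5 had a root mean square difference from Ptx3 of 0.0497, Esm1, which encodes a proteoglycan secreted by endothelial cells, one of 0.069 and Aoc1, a diamine oxidase gene, one of 0.0766. Nap1l5 had a log2 fold change of 0.99 (SE 0.107). Likeness over 6 libraries of 2 groups mostly reflects the size of the group difference.

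Il6 (chromosome 4, 3043231 to 3047807, plus strand) was higher as well, at a much lower level. The cytokine gene held 100, 112 and 101 counts in si-NC and 181, 170 and 190 counts in si-DYRK1A, or 9.59, 9.47 and 8.45 CPM against 15.9, 16.0 and 16.4 CPM. The groups were well apart, and the si-DYRK1A libraries lay close together. The log2 fold change was 0.82 (SE 0.122, 95% interval 0.56 to 1.07), or 1.76-fold, and ranged from 0.75 to 0.85 with a library left out. The genes nearest to Il6 in their 6 values were Rasd1, a Ras-related gene, at a root mean square difference of 0.045, Car2, a carbonic anhydrase gene, at 0.0466 and Ackr3, an atypical chemokine receptor gene, at 0.0619.

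**Figure D1:**
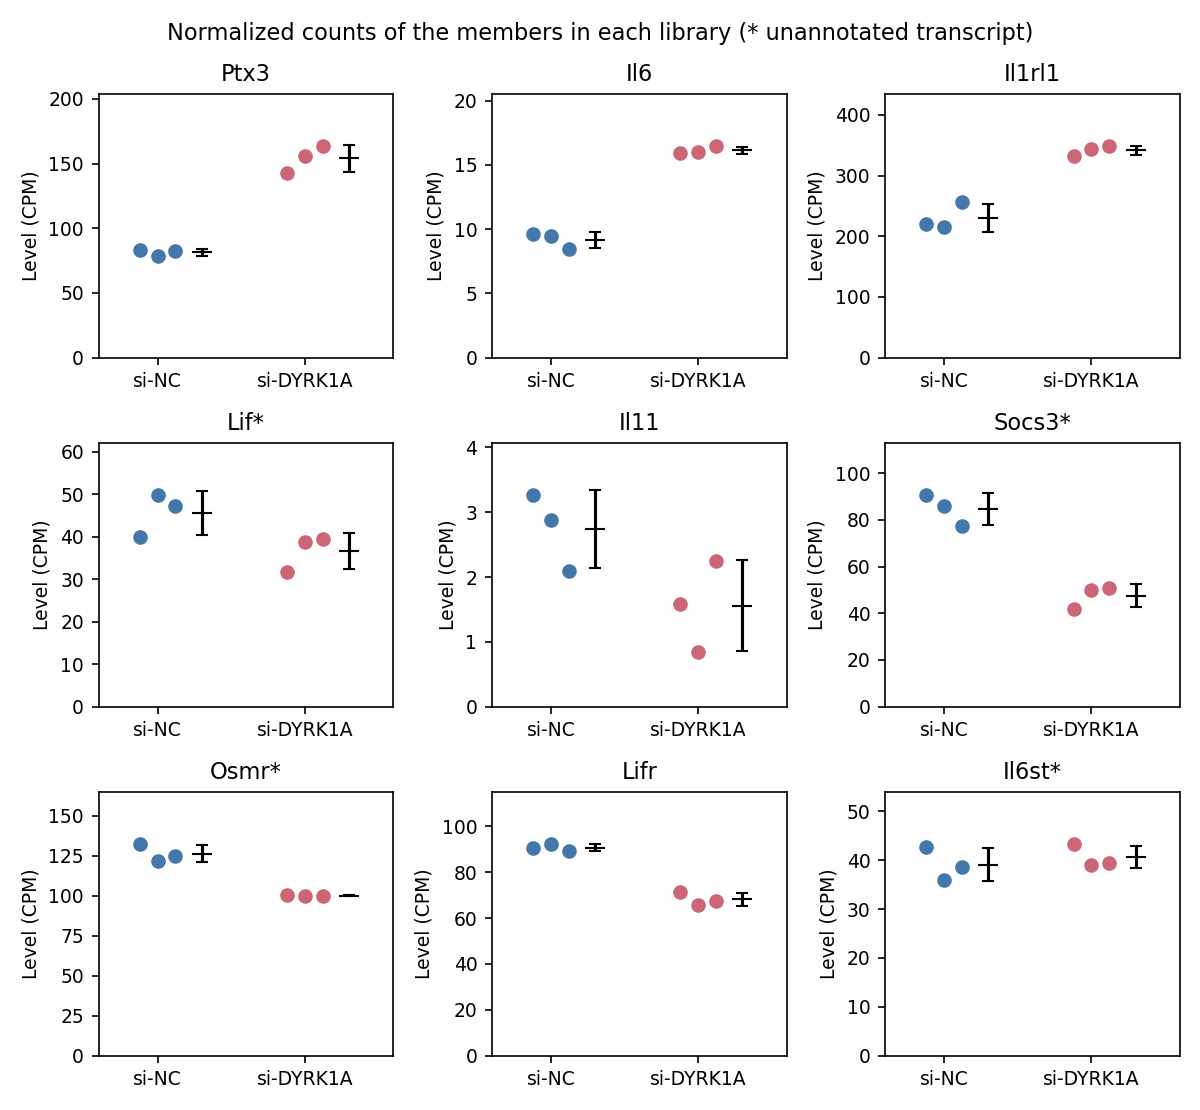
Normalized counts (CPM, vertical axes starting at 0) of the 9 tested members in each si-NC library (blue) and si-DYRK1A library (red), with the mean and SD of 3 libraries in black; an asterisk marks a member read from an unannotated transcript. Ptx3, Il6 and Il1rl1 lay higher and Lif, Socs3, Osmr and Lifr lower in all 3 si-DYRK1A libraries, while Il11 and Il6st overlapped.

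The other ligands were not higher. Lif, the gene for leukaemia inhibitory factor, was read from the transcript at chromosome 14, 84494131 to 84502293, plus strand. Its levels were 39.9, 49.7 and 47.2 CPM in si-NC and 31.8, 38.8 and 39.4 CPM in si-DYRK1A. The groups did not overlap, but the lowest si-NC library and the highest si-DYRK1A library nearly met. For Lif the log2 fold change was −0.32 (SE 0.0951, 95% interval −0.52 to −0.12). Without si-NC replicate 2 it was −0.25, without si-NC replicate 3 it was −0.30, without si-DYRK1A replicate 1 it was −0.22 and without si-DYRK1A replicate 2 it was −0.36, and in each of these 4 fits Lif was no longer called.

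Il11 (chromosome 1, 72635267 to 72643255, plus strand), the gene for a cytokine known for its role in fibrosis, had the fewest counts of the measured members. It held 34, 34 and 25 counts in si-NC and 18, 9 and 26 counts in si-DYRK1A, which was 3.26, 2.88 and 2.09 CPM against 1.58, 0.85 and 2.25 CPM. The groups overlapped, since si-DYRK1A replicate 3 was above si-NC replicate 3. Its log2 fold change of −0.79 had an SE of 0.332 and a 95% interval of −1.48 to −0.10, and Il11 was not called. Leaving out si-DYRK1A replicate 2 gave −0.51 and leaving out si-DYRK1A replicate 3 gave −1.15, so single libraries set the size of the value.

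Among the members, both receptor chains that pair with gp130 were lower. Osmr, the oncostatin M receptor gene, was read from the transcript at chromosome 2, 56109044 to 56163575, minus strand, with 132, 122 and 125 CPM in si-NC and 101, 99.9 and 99.6 CPM in si-DYRK1A. All si-DYRK1A libraries lay close together and under the lowest si-NC library. This gave a log2 fold change of −0.33 (SE 0.0507, 95% interval −0.44 to −0.23). Lifr, the LIF receptor gene, is next to Osmr on the same chromosome (56426367 to 56489415, plus strand). It was at 90.6, 92.2 and 89.3 CPM in si-NC and 71.3, 65.6 and 67.7 CPM in si-DYRK1A. Here too the groups were far apart, with a log2 fold change of −0.41 (SE 0.0569, 95% interval −0.53 to −0.29). With a library left out, Osmr ranged from −0.36 to −0.30 and Lifr from −0.44 to −0.38.

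The shared chain behaved differently from both in its values. Il6st, read from the transcript at chromosome 2, 44279237 to 44319436, plus strand, was at 42.7, 35.9 and 38.7 CPM in si-NC and 43.3, 39.1 and 39.6 CPM in si-DYRK1A. The groups overlapped almost wholly. At 0.06 the log2 fold change was close to 0 (SE 0.0810), and its 95% interval of −0.11 to 0.23 bounds the difference that these libraries allow. The difference between Il6st and the other chains was not tested.

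Socs3, the feedback inhibitor of the pathway, was lower in every si-DYRK1A library. It was read from the transcript at chromosome 10, 106973851 to 106976918, minus strand, which held 944, 1017 and 925 counts in si-NC and 477, 529 and 589 counts in si-DYRK1A. The levels were 90.5, 86.0 and 77.3 CPM against 42.0, 49.8 and 51.0 CPM. The highest si-DYRK1A library was well under the lowest si-NC library. The log2 fold change was −0.83 (SE 0.0774, 95% interval −0.99 to −0.67), a level 1.78-fold lower. Leaving out a library moved it between −0.90 and −0.75.

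Il1rl1 (chromosome 9, 47134034 to 47182170, plus strand) was the most abundant member. Its levels were 220, 215 and 256 CPM in si-NC and 333, 343 and 348 CPM in si-DYRK1A. Among the si-NC libraries replicate 3 stood highest, and it was still under every si-DYRK1A library. The log2 fold change was 0.57 (SE 0.0566, 95% interval 0.45 to 0.69), or 1.48-fold. Counts per gene do not separate the membrane receptor from the soluble decoy.

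**Figure D2:**
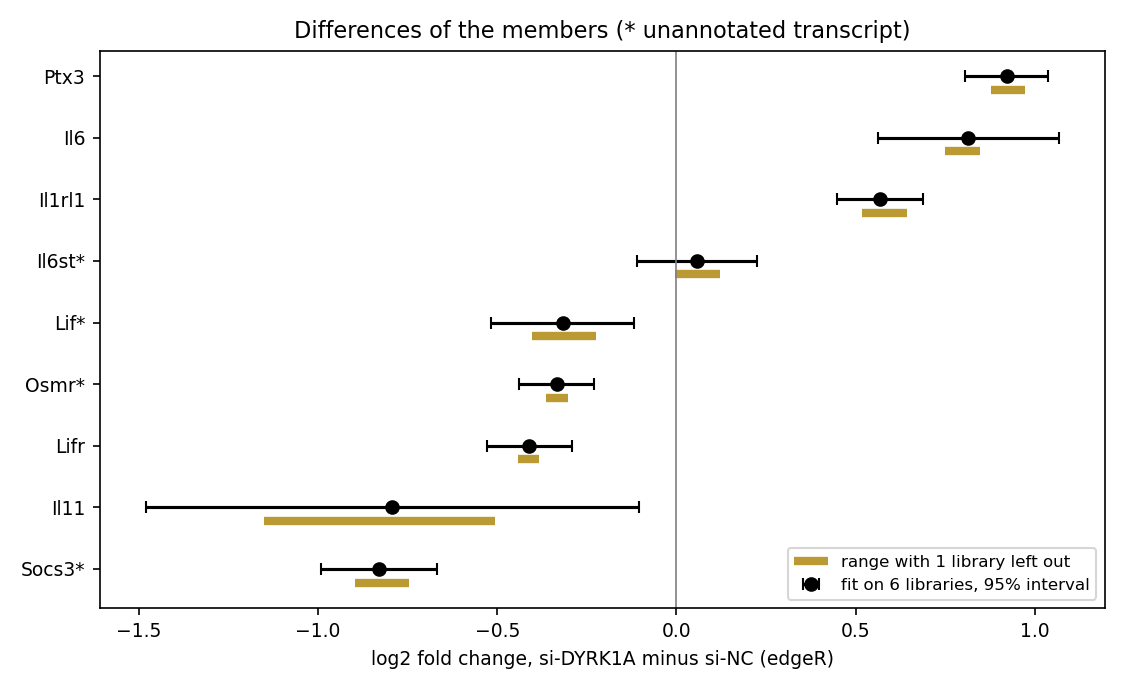
Log2 fold change of each tested member (si-DYRK1A minus si-NC, horizontal axis) with its 95% interval from the edgeR fit on 6 libraries in black, and the range of the value when each library was left out in ochre; an asterisk marks an unannotated transcript. Ptx3 stood at 0.92 and Socs3 at −0.83, the interval of Il6st spanned 0 and that of Il11 was the widest.

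The spread between libraries of one group differed among the members. Il6 had a within-group SD of 0.0722 on the log2 CPM scale, less than the median of 0.150 for 1956 features within 0.5 of its level. Lif had an SD of 0.169 where the median for features of its level was 0.0887, and that of Socs3 was 0.136 where the median was 0.0774. Il1rl1 had an SD of 0.0994 where the median was 0.0510. Lif, Socs3 and Il1rl1 thus varied more between replicates than 94.5%, 92.7% and 91.9% of features of like level.

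Levels of different genes can be compared only per length, for which the FPKM values of the authors were used. In si-NC the order was Il1rl1 (64.5 ± 6.24 FPKM, SD, n = 3), Ptx3 (42.0 ± 1.30), Socs3 (33.5 ± 2.61), Osmr (23.8 ± 0.940), Lifr (16.7 ± 0.296), Lif (9.08 ± 1.04), Il6 (8.72 ± 0.595), Il6st (5.06 ± 0.421) and Il11 (1.61 ± 0.348). Lif and Il6 overlapped in their libraries, and other neighbours in this order did not. In si-DYRK1A, Il1rl1 stood at 95.3 ± 2.25 FPKM (SD, n = 3) and Ptx3 at 79.3 ± 5.33 FPKM, while Osmr at 18.8 ± 0.0985 FPKM and Socs3 at 18.8 ± 1.94 FPKM now overlapped. Il6 at 15.3 ± 0.258 FPKM was above Lifr at 12.5 ± 0.523 FPKM in that group, and below it in si-NC. Among the 15513 tested features, the si-NC level of Il1rl1 was above 90.9% and that of Ptx3 above 86.8%, whereas Il11 was above 27.5%. The length of an unannotated transcript is that listed by the authors.

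**Figure D3:**
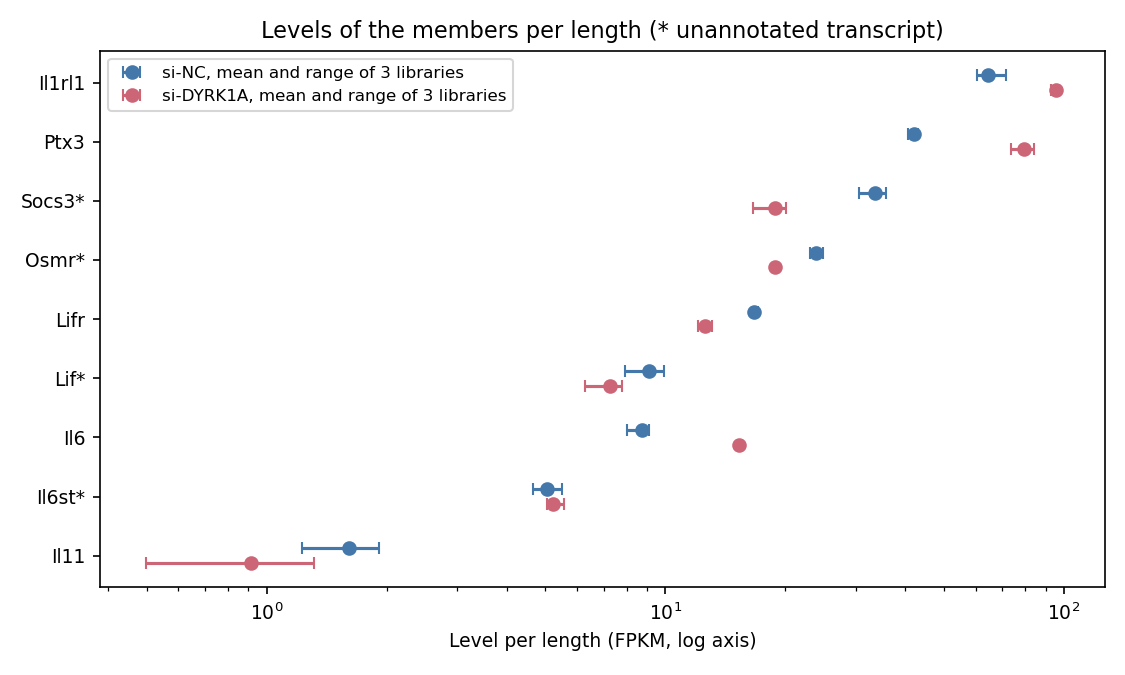
Level per length (FPKM, log axis) of the 9 tested members in si-NC (blue) and si-DYRK1A (red), with the mean as a point and the range of 3 libraries as a bar; an asterisk marks an unannotated transcript. Il1rl1 and Ptx3 were the 2 highest in both groups, and Il6 stood below Lifr in si-NC and above it in si-DYRK1A.

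Other genes of the pathway were taken from 8 lists of 125 genes, of which 122 were in the table and 67 passed the filter. Of those 67, 22 were called (32.8%, beside 15.2% of all features), 10 higher and 12 lower, and 45 were not called. The lists, like the members, were chosen with earlier results of these data known. This share and the adjusted p-values of list genes below are therefore a description. The median log2 fold change of the 67 was −0.13, beside 0.002 over all features. Of the other 55, 42 were overlapped by an unannotated transcript on their strand, as several members were. When the counts of a gene and its unannotated transcript were summed, 91 were tested, 12 higher and 13 lower.

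Among the other ligands of the family, Ebi3, a subunit gene of IL-27 and IL-35, was the 1 of 3 tested that rose. It went from 8.82, 10.9 and 7.27 CPM to 11.6, 12.4 and 12.8 CPM, a log2 fold change of 0.45 (SE 0.150, edgeR adjusted p = 0.0468). The call was lost when any library except si-NC replicate 2 was left out, with adjusted p = 0.116 and 0.214 without si-NC replicates 1 and 3 and 0.0720, 0.131 and 0.148 without si-DYRK1A replicates 1, 2 and 3. Osm, the gene for oncostatin M, was at 1.92, 1.61 and 2.76 CPM in si-NC and 1.14, 0.94 and 1.30 CPM in si-DYRK1A. Its log2 fold change of −0.89 (SE 0.348) did not pass the test (edgeR adjusted p = 0.0952). Clcf1, the other ligand gene tested, had a log2 fold change of −0.29 (SE 0.372) and was not called. Osm and Clcf1 were named outside the rule given below.

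Of 4 tested genes for other receptor chains and their shedding enzymes, 2 fell and none rose. Il6r, the private receptor of IL-6, was at 22.5, 21.8 and 20.5 CPM in si-NC and 17.2, 17.1 and 16.3 CPM in si-DYRK1A (log2 fold change −0.36, SE 0.0985, edgeR adjusted p = 0.0164). Its call was lost without si-NC replicate 1 (adjusted p = 0.0679) and without si-DYRK1A replicate 3 (adjusted p = 0.0744). Adam17, a protease that sheds the IL-6 receptor from the cell surface, was at 193 to 197 CPM in si-NC and 161 to 174 CPM in si-DYRK1A and fell by 0.22 on the log2 scale (SE 0.0461, edgeR adjusted p = 0.00191). Cntfr (log2 fold change −0.50, SE 0.243) and Il27ra (−0.65, SE 0.289) did not pass the test.

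The JAK and STAT list held 1 gene that rose and 2 that fell of 5 tested. Stat2, which acts in interferon signalling, was at 12.5, 13.3 and 12.5 CPM in si-NC and 19.7, 16.8 and 16.4 CPM in si-DYRK1A (log2 fold change 0.46, edgeR adjusted p = 0.00731), a call that ended once si-DYRK1A replicate 1 was left out (adjusted p = 0.0628). Stat5a fell by 0.36 (edgeR adjusted p = 0.00544) and Stat6, the mediator of IL-4 signals, by 0.28 on the log2 scale (edgeR adjusted p = 0.00172). The unannotated transcript over Jak1, a kinase bound to gp130 that was chosen for mention after its values had been seen, had a log2 fold change of −0.11 (95% interval −0.25 to 0.04). In the list of SOCS proteins and other brakes, 1 of 5 tested fell. That gene was Ptpn6, a phosphatase of blood cells, with a log2 fold change of −0.38 (edgeR adjusted p = 0.00877, and 0.0679 without si-DYRK1A replicate 1). Of the 4 that were not called, Socs1 was at 0.01 (95% interval −0.38 to 0.40), Socs4 at −0.01 and Socs5 at −0.03. Cish was at −0.13 (95% interval −0.31 to 0.04). With gene and transcript counts summed, 10 of this list were tested, with 1 lower and none higher. Those added were Ptpn1 (−0.63), Ptpn2 (−0.55), Pias1 (−0.03), Socs7 (0.02) and Socs2 (0.13). These genes other than Ptpn6 were named outside the rule given below.

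Known STAT3 targets did not move one way. Of 13 tested, 3 rose and 2 fell. Spp1, the osteopontin gene, was at 2106 to 2222 CPM in si-NC and rose to between 2743 and 2868 CPM in si-DYRK1A (log2 fold change 0.38, edgeR adjusted p = 5.58e-07). Birc5, the survivin gene, which also marks dividing cells, rose by 0.56 (edgeR adjusted p = 5.11e-06), and Cebpb, a transcription factor gene of the acute phase response, rose by 0.30 on the log2 scale (edgeR adjusted p = 0.0106). Lcn2, an acute phase protein gene, fell by 0.27 (edgeR adjusted p = 0.00255) and Lbp, the lipopolysaccharide-binding protein gene, by 0.20 on the log2 scale (edgeR adjusted p = 0.0419). The call of Cebpb was lost without si-NC replicate 1 and without si-DYRK1A replicates 2 and 3 (adjusted p = 0.0666, 0.0764 and 0.0762). Lbp was lost without si-NC replicate 1 and without si-DYRK1A replicates 1, 2 and 3 (adjusted p = 0.198, 0.129, 0.0778 and 0.114). The transcript over Fos, an early response gene among these targets that was chosen for mention after its values had been seen, fell by 0.69 on the log2 scale (edgeR adjusted p = 0.000196).

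Among pentraxins and the partners of PTX3, 3 of 11 tested rose and 2 fell. Has2, which makes the hyaluronan of the extracellular matrix, was at 19.3, 17.1 and 21.8 CPM in si-NC and 39.1, 38.3 and 36.6 CPM in si-DYRK1A. Its log2 fold change of 0.97 (SE 0.0943, edgeR adjusted p = 2.9e-07) stood beside one of −0.74 (SE 0.179, edgeR adjusted p = 0.00617) for Has1, its paralogue, which was at 8.63, 10.3 and 7.69 CPM in si-NC and 4.40, 5.56 and 5.97 CPM in si-DYRK1A. The neuronal pentraxin gene Nptx1 rose by 0.89 (edgeR adjusted p = 0.00187) and the receptor gene Nptxr by 0.61 on the log2 scale (edgeR adjusted p = 1.45e-06). Tnfaip6, the gene for TSG-6, which joins PTX3 to hyaluronan, was at 12.3, 14.6 and 13.8 CPM against 12.1, 10.6 and 10.2 CPM and did not pass the test (log2 fold change −0.30, SE 0.128); it was chosen for mention after its values had been seen.

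**Figure D4:**
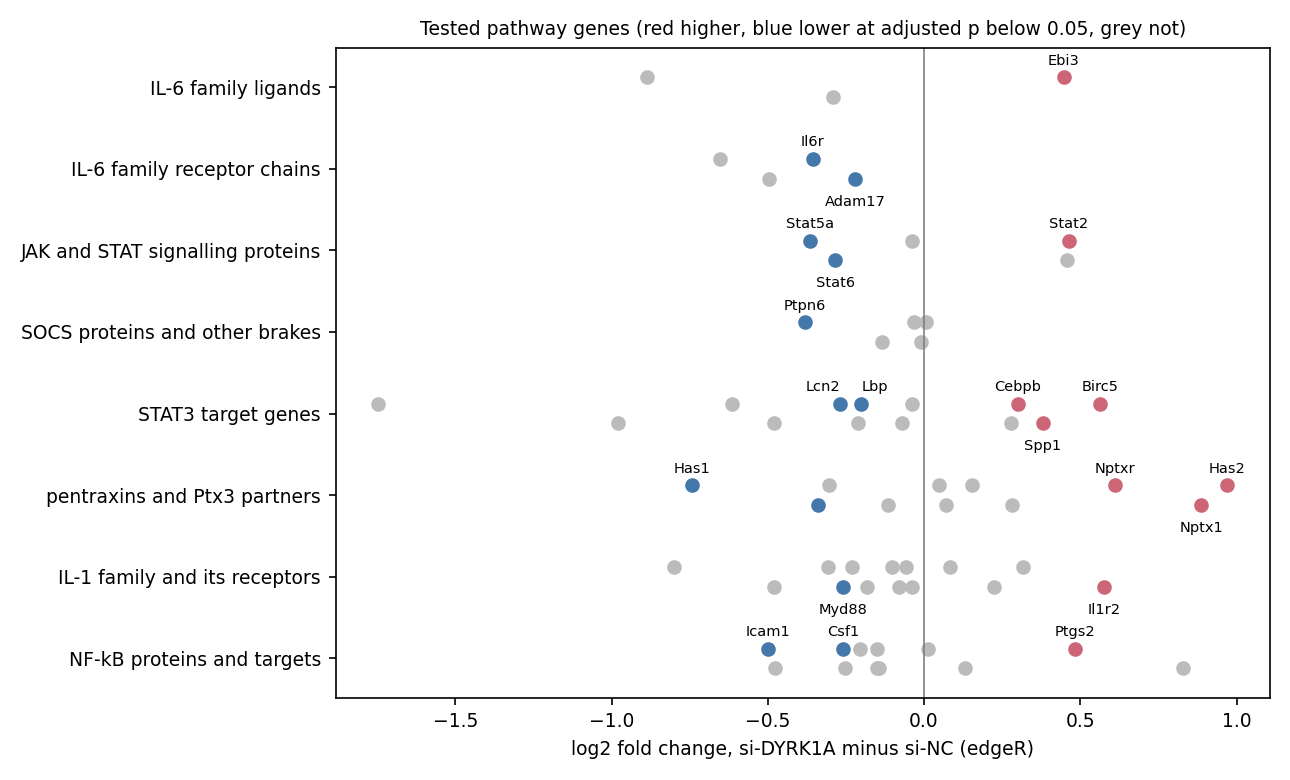
Log2 fold change (si-DYRK1A minus si-NC, horizontal axis) of each of the 67 tested pathway genes by list, with genes called higher in red, called lower in blue and not called in grey. Called genes of both directions stood side by side in 5 of the 8 lists, as with Has2 at 0.97 and Has1 at −0.74 among the partners of PTX3.

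Around Il1rl1, the IL-1 family held 1 gene that rose and 1 that fell of 14 tested. Il1r2, the decoy receptor of IL-1, rose from 9.88, 9.47 and 10.1 CPM to 13.4, 15.2 and 15.4 CPM (log2 fold change 0.58, SE 0.124, edgeR adjusted p = 0.00261). Il1rap, the coreceptor of ST2 and of the IL-1 receptor, was at 0.08 (95% interval −0.06 to 0.23), and the transcript over Il33, the gene for the ligand of ST2, at −0.12 (95% interval −0.52 to 0.28). The transcript over Il1r1, the IL-1 receptor gene, for which Ig and TIR domains are listed, rose by 0.31 on the log2 scale (edgeR adjusted p = 5.49e-05). Il1rap, Il33 and Il1r1 were chosen for mention after their values had been seen. Myd88, an adaptor of these receptors, had a log2 fold change of −0.26 (edgeR adjusted p = 0.0192), which was −0.16 without si-NC replicate 2 (adjusted p = 0.134), and its call was also lost without si-DYRK1A replicates 1, 2 and 3 (adjusted p = 0.0705, 0.0662 and 0.0647).

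In the NF-kB list, 1 gene rose and 2 fell of 12 tested. Ptgs2, the gene for cyclooxygenase 2, rose from 70.2, 74.5 and 81.9 CPM to 108, 98.3 and 110 CPM (log2 fold change 0.48, edgeR adjusted p = 1.35e-05). The transcript over Nfkb1, an NF-kB subunit gene that was chosen for mention after its values had been seen, was at 6.62, 6.68 and 8.78 CPM in si-NC and 9.67, 10.4 and 12.6 CPM in si-DYRK1A (log2 fold change 0.56, edgeR adjusted p = 0.0207). That call was lost without si-NC replicates 1 and 2 (adjusted p = 0.0842 and 0.0710) and without si-DYRK1A replicate 3 (adjusted p = 0.143). Icam1, an adhesion molecule gene, fell from 261, 259 and 249 CPM to 166, 193 and 185 CPM (log2 fold change −0.50, edgeR adjusted p = 6.71e-07), and Csf1, the macrophage growth factor gene, fell by 0.26 on the log2 scale (edgeR adjusted p = 0.00123).

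Marker lists of 6 cell types were summed in each library. Summed cardiomyocyte markers were at 22792 to 23746 CPM in si-NC and 26088 to 26929 CPM in si-DYRK1A. Of 7 tested, 4 were called higher (Actn2, Actc1, Nppa and Pln) and none lower. Most of each sum was Actc1 and Nppa. Nppa was at 7153 to 7882 CPM against 9248 to 10158 CPM, and Actc1 at 9908 to 10081 CPM against 10726 to 11095 CPM. Myl3 was lower without overlap, at 2277 to 2525 CPM against 2168 to 2204 CPM, and not called. Tnnc1 (log2 fold change 0.04) and Tnnt2 (−0.14) were not called either. Tnni3, Myh6, Myh7, Myl2 and Mybpc3 were at 0, all under unannotated transcripts. Fibroblast markers summed to 21739 to 26483 CPM against 20646 to 21403 CPM, while 3 of 7 tested were called higher (Lum, Postn and Fbln1) and none lower. The lower sum rested on Col1a1, with 12627 to 16411 CPM against 10899 to 11285 CPM, which was not called (log2 fold change −0.37, edgeR adjusted p = 0.0869). Without it, a sum added after the data had been seen, the groups overlapped, at 9112 to 10073 CPM against 9746 to 10118 CPM. Col3a1 (log2 fold change 0.02), Dcn (0.25) and Tcf21 (0.14) were not called either. Pdgfra and Ddr2 were at 0 under unannotated transcripts. The transcript over Ddr2 was at 519 to 550 CPM against 485 to 505 CPM and not called. It was chosen for mention after its values had been seen. With gene and transcript counts summed, 9 fibroblast markers were tested, with 4 higher (Dcn added) and none lower. Endothelial markers summed to 189 to 209 CPM against 159 to 166 CPM, and Cldn5 was at 0. Of 8 tested, 3 were lower (Cdh5, Tie1 and Tek) and none higher. Tek was at 49.1 to 51.0 CPM against 28.8 to 31.1 CPM. Esam was higher without overlap, at 17.6 to 19.4 CPM against 19.7 to 22.3 CPM, and not called. Vwf (log2 fold change −0.53), Egfl7 (−0.54), Kdr (−0.01) and Emcn (0.03) were not called either.

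Of 8 tested macrophage markers, 2 were called higher (Cd163 and Lyz2) and none lower. The sums of this list, 327 to 341 CPM in si-NC and 328 to 370 CPM in si-DYRK1A, overlapped. Cd68, which an unannotated transcript covers, was at 0. Lyz2 was at 83.9 to 94.2 CPM against 106 to 126 CPM. Ptprc (29.1 to 34.6 against 25.6 to 28.4 CPM) and Adgre1 (3.64 to 3.93 against 2.08 to 3.58 CPM) were lower without overlap. Neither was called. Csf1r (log2 fold change −0.13), Mrc1 (−0.19), Tyrobp (−0.04) and C1qa (0.15) were not called either. For smooth muscle and pericyte markers the sums were 708 to 741 CPM and 733 to 754 CPM, and none of 4 tested was called. Acta2, Myh11 and Abcc9 were at 0, all under unannotated transcripts. With gene and transcript counts summed, 6 of this list were tested, with 1 higher (Rgs5) and none lower. The transcript over Rgs5 was at 40.6 to 47.8 CPM against 64.1 to 68.4 CPM (log2 fold change 0.55, edgeR adjusted p = 1.34e-05). It was chosen for mention after its values had been seen. Markers of mast cells, which carry ST2, summed to 91.3 to 102 CPM in si-NC and 115 to 116 CPM in si-DYRK1A, nearly all of it from Kit and Hdc, with 1 of 2 tested higher. The granule protease genes of mast cells were at or near 0, with 0 to 5 counts per library for Cpa3 and 0 for Cma1, and Fcer1a was at 0. The part of these cell types in the differences of the members was not tested.

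**Figure D5:**
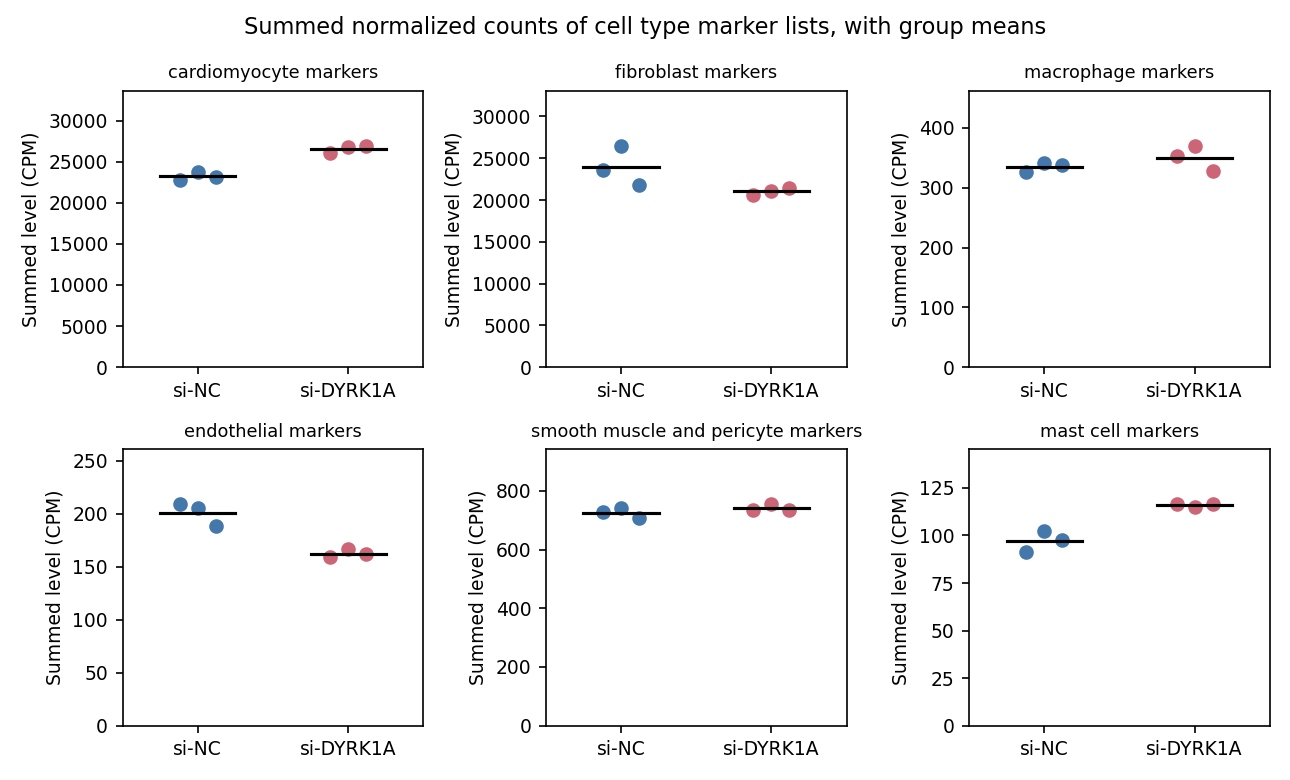
Summed normalized counts (CPM, vertical axes starting at 0) of 6 cell type marker lists in each si-NC library (blue) and si-DYRK1A library (red), with group means as black lines. The cardiomyocyte and mast cell sums were higher and the endothelial sums lower in all 3 si-DYRK1A libraries. The fibroblast sums were lower through Col1a1, although the called fibroblast markers were higher, and the macrophage and smooth muscle sums overlapped.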

How the data were processed

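RNA-seq of 3 si-NC and 3 si-DYRK1A libraries was analysed, grouped by the sample labels. The authors deposited a table of counts per gene, not normalized, and FPKM values, which are counts per gene length scaled by a constant for each library. The methods of the study give HISAT2 and Rnor_6.0, whereas the processing notes of the submitters name Bowtie 0.12.2 and mm8. The deposited table lists rat gene identifiers. The library kit is TruSeq in the labels and NEBNext in the methods. No source used here gives the counting tool or its strand setting. Of the rows, 10353 had no gene name and were kept by their identifier.

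The fit was edgeR 4.0.16 in R 4.3.3 over all 6 libraries, with TMM factors, filterByExpr (minimum count 10, minimum total 15), a robust quasi-likelihood test, two-sided, and Benjamini-Hochberg adjustment over all features at 0.05. Normalized counts are CPM with TMM factors. The scripts were tested on simulated data. P-values set the difference between groups against the spread between 3 libraries per group, estimated with information from all features. Intervals are 95% intervals of the fit.

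The members and lists were chosen with earlier results of these data known. Named were the members, Dyrk1a, pathway genes past the threshold (at most 8 per list), ligands and receptor chains above a mean log2 CPM of 1, and for Ptx3 and Il6 the 3 nearest annotated genes. Osm, Clcf1 and listed brakes other than Ptpn6 were named outside this rule. So were genes marked above as chosen after their values had been seen. A member was read from its own row or its overlapping unannotated transcript, whichever held more counts. Stat4, Mcl1 and Serpina3n of the pathway lists were not matched in the table. The same held for the markers Ttn, Col1a2, Itgam, Pecam1 and Mcpt1, which the marker sums thus lack. The values of 1 called gene of the lists are not reported here.

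Alternatives were RLE, upper-quartile or no normalization factors, DESeq2 1.42.0, limma-voom with limma 3.58.1, no filter, at least 10 counts in every library, each library left out, the replicate number as a block, log2(FPKM + 1) and log2(FPKM + 0.1) with FPKM above 0.5 in 3 libraries, the former without that filter, and summed rows. Columns of gene descriptions gave the listed domains.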

Additional observations from a re-analysis of the deposited data

How the results depend on the processing

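Ptx3, Il6, Il1rl1, Osmr, Lifr and Socs3 kept their direction and their call under every alternative run for them. Of 161 values of members under alternatives, 152 kept direction and call. For Lif 8 lost the call, in the 4 fits without 1 library given above, under limma-voom and in the 3 FPKM settings. The 1 that reversed was Il6st, whose value ranged from −0.0028 (without si-NC replicate 2) to 0.12 with a library left out. With a library left out, 6 to 7 members were called, 3 of them higher in each fit and 3 to 4 lower. The cause of these changes was not tested.

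Of 432 values of pathway genes named by the rule, 366 kept direction and call, 66 lost the call and none reversed. The 22 called pathway genes became 11, 10 and 8 on log2(FPKM + 1), on log2(FPKM + 0.1) and on log2(FPKM + 1) without a filter. Those called higher were 6 on log2(FPKM + 0.1) and 6 without a filter, and those called lower were 4, 4 and 2 in the 3 settings. With a library left out, 17 to 22 were called, 8 to 10 higher and 9 to 13 lower. Over all features, DESeq2 called 1571 (821 higher), and the 3 FPKM settings called 1197 (662 higher, 535 lower), 1162 (644 higher, 518 lower) and 667 (383 higher, 284 lower). With a library left out, 1614 to 2210 were called, 854 to 1123 higher and 746 to 1087 lower. The cause was not tested, and fewer libraries enter each of these last fits.

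Deviations of libraries with the same replicate number had correlations of 0.0578, −0.0261 and −0.0041. Those of unlike numbers ranged from −0.0553 to 0.0595. Pairing by number was thus not seen, but these values do not tell whether libraries shared a preparation. The fit with the replicate block called 2269 features (1193 higher, 1076 lower), and among genes named by the rule it changed the call of Lbp alone (adjusted p = 0.0567).

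With 9 to 34 counts per library, Il11 and Osm had wide intervals. Members counted in unannotated transcripts depend on how the authors built those transcripts.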
